A study of Canis lupus familiaris with 33 samples.

Results

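ENSCAFG00000012243 and ENSCAFG00000044241 are 2 of the 30951 dog genes in a table of RNA-seq counts from canine oligodendroglioma and healthy brain. They were chosen by their fold changes of tumour over control. Genes were ranked by the smaller of their changes in formalin-fixed and in fresh-frozen tissue, and these 2 head the list. The list held 815 genes that were called lower in both and passed 2 filters in each. The average level was at least 2 in log2 CPM, the unit described below. At least 80% of tumours lay below the control median, and at least 80% of controls above the tumour median. The difference between tumour and control is therefore given here as a description, without a test. Neither gene could be given a name: the table holds Ensembl identifiers only, and 0 of them matched the RefSeq gene table used here. Both are called by their identifiers, and nothing is said of what they encode.

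Oligodendroglioma is a glioma whose cells resemble the oligodendrocyte lineage, the cells that wrap axons in myelin. It is a frequent brain tumour of short-nosed dog breeds such as Boxers and French Bulldogs. Healthy brain is a mixture of neurons, astrocytes, oligodendrocytes, microglia and vessels, and a tumour replaces much of that mixture, so a gene can be lower in tumour RNA because fewer cells of one kind are present or because each cell holds less of its RNA. In bulk samples these cannot be told apart. Formalin fixation breaks and chemically modifies RNA, and the study compared fixed blocks with frozen tissue.

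The study sequenced total RNA from 33 necropsy samples of 25 dogs, 12 with a tumour and 13 controls. The formalin-fixed, paraffin-embedded (FFPE) tumours were 11, with 9 of grade III and 2 of grade II. They came from 4 Boxers, 6 French Bulldogs and 1 Pomerian (spelt as in the label), aged 4.7 to 12 years where stated. The 10 FFPE controls were healthy brain from 4 Boxers, 5 French Bulldogs and 1 Bolonka Swetna, aged 2 to 8 years where stated. The fresh-frozen tumours were 6, with 5 of grade III and 1 of grade II. They came from 1 Boxer, 3 French Bulldogs, a Border Terrier and a Pomerian, aged 4.7 to 10 years where stated. The 6 fresh-frozen controls came from 2 French Bulldogs, a Hovawart, a Mongrel, a Berner sennenhund and a Bolonka Swetna, aged 2.8 to 10.2 years where stated. The French Bulldog was the only breed in both fresh-frozen groups, so breed and tissue are partly confounded there. Of all these dogs, 8 gave both kinds of sample, 5 with a tumour and 3 controls. The brain region sampled is not named in the labels, and the labelled tissue could not be checked against marker genes because the identifiers carry no names.

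Total counts per library ran from 406406 to 32584840 in FFPE controls, 1752162 to 12501029 in FFPE tumours, 15255966 to 26726025 in fresh-frozen controls and 9765907 to 25168080 in fresh-frozen tumours. Levels are given as CPM, in which counts are set relative to their library's total, after TMM scaling, which adjusts that total for differences in composition. On the second principal component, with 23.3% of the variance, fresh-frozen libraries formed 2 sets. The smaller set was dogs 60126, 60127, 60461 and 60462, with 2 tumours and 2 controls. Over all genes, the FFPE and fresh-frozen libraries of a dog deviated together from their group means with r of 0.0847 to 0.744. The lowest were dog 60636 and, at 0.128, dog 60461, a Boxer with a grade III tumour whose FFPE library is high for both genes, so results that rest on it are also given without it. Its labels also differ on age, given as NA for the FFPE library and as 8.8 years for the fresh-frozen one. Whether both samples of dog 60461 come from the same animal and tissue, as the dog number says, could not be checked here. The same holds for dog 60636, whose r was lower still, and the paired values of both dogs depend on it.

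ENSCAFG00000012243 lies on chromosome 26 of CanFam3.1 from 22726526 to 22735125 on the forward strand. Its Ensembl release 100 model has 4 exons of 941, 200, 125 and 2837 bp, which sum to 4103 bp. ENSCAFG00000044241 lies on chromosome 7 from 497394 to 502952, also on the forward strand, with 5 exons of 942, 120, 168, 168 and 1678 bp that sum to 3076 bp. No annotated gene overlaps either of them. Both models thus open with an exon of nearly the same length and close with their longest exon, though the table does not say which parts are coding or untranslated.

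ENSCAFG00000012243 was detected with over 100 counts in each control. In FFPE controls it ran from 179 CPM in dog 43323 through a median of 342 to 1017 in dog 45726, and in fresh-frozen controls from 63.6 in dog 60516 through a median of 251 to 514 in dog 60459. The controls of each preservation thus differed among themselves by 5.69-fold and 8.07-fold.

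The FFPE tumours spanned an 18.4-fold range for this gene. The lowest were dog 51234 at 7.44 CPM, dog 50416 at 11.8, dog 60749 at 14.4, dog 60636 at 19.6 and dog 60792 at 25.2. The middle of the range held dog 60679 at 40.3, dog 44331 at 45.9, dog 60177 at 48.0 and dog 43917 at 51.6, and above them stood dog 60127 at 72.2 and dog 60461 at 137. These FFPE tumours were all below the lowest FFPE control, which was 1.30 times the highest tumour. The fresh-frozen tumours held 7.42 CPM in dog 60749, 12.5 in dog 60461, 14.05 in dog 60631, 28.5 in dog 60636, 39.6 in dog 60127 and 43.0 in dog 60679. Again each was below each control of its preservation, the lowest control being 1.48 times the highest tumour. Such a full separation was shared by 0.277% of the genes tested in FFPE and by 5.13% in fresh-frozen tissue. The choice of the gene already required at least 80% of each group on its own side, so the separation partly follows from that choice. Across preservations the ranges met: 15 of the 17 tumour libraries were below the lowest of the 16 controls, the exceptions being the FFPE libraries of dogs 60127 and 60461 against the fresh-frozen control of dog 60516.

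ENSCAFG00000044241 had fewer counts, and its tumour values rest on few reads. FFPE controls ran from 13.3 CPM in dog 47198 through a median of 21.2 to 98.2 in dog 45726, and fresh-frozen controls from 4.39 in dog 60462 through a median of 9.27 to 45.1 in dog 60460. In the FFPE tumours of dogs 50416, 60749, 60792, 51234 and 60679 it was at 0.382, 0.777, 1.01, 1.54 and 1.68 CPM, which rested on 1, 9, 3, 6 and 8 counts. Those of dogs 60127, 60636, 43917, 60177 and 44331 held 3.12, 4.80, 5.10, 5.82 and 7.27 CPM, and that of dog 60461 held 21.6 CPM from 176 counts.

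The single count of dog 50416 has a 95% exact Poisson interval of 0.00966 to 2.13 CPM, and the 176 counts of dog 60461 one of 18.5 to 25.05 CPM. Both cover counting error only, since amplified copies of one molecule may be among the counts. With that error, the order among the 5 lowest FFPE tumours could not be resolved. Of the FFPE tumours, 10 of 11 lay below the lowest control, and dog 60461 was at 1.62 times it, above the 5 lowest of the 10 controls. One FFPE control, dog 50315, also rests on few reads, with 6 counts and 17.7 CPM in the shallowest library.

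In the fresh-frozen tumours ENSCAFG00000044241 had 3 to 22 counts despite their depth. Dog 60461 held 0.156 CPM from 4 counts, dog 60749 held 0.247 from 3 counts and dog 60631 held 0.290 from 5 counts. Dogs 60127, 60636 and 60679 held 0.434, 0.849 and 0.939 CPM from 10, 20 and 22 counts. All 6 were under the lowest fresh-frozen control by at least the factor of 4.68 that parted the highest tumour from it. A full separation, by whatever factor, was found for 5.13% of the genes tested in fresh-frozen tissue. The choice of ENSCAFG00000044241 also required most of each group to lie beyond the other group's median in each preservation. Its separation in frozen tissue, and the near separation in FFPE, thus partly follow from that choice. Across preservations 12 of the 17 tumour libraries were below the lowest of the 16 controls, and all the others were FFPE libraries.

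**Figure D1:**
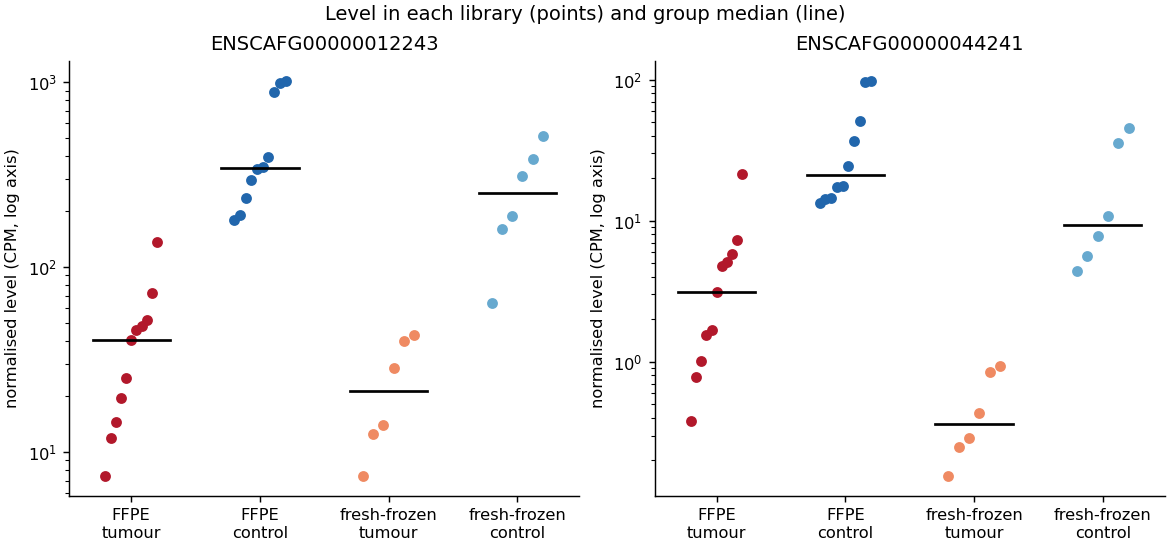
Normalised level in CPM on a log axis of ENSCAFG00000012243 (left) and ENSCAFG00000044241 (right) in each of the 33 libraries, as points sorted within the 4 groups, with the group median as a line. Tumour medians of 40.3 and 21.3 CPM stand under control medians of 342 and 251 on the left, and 3.12 and 0.362 under 21.2 and 9.27 on the right; the 1 FFPE tumour that reaches into the controls on the right is dog 60461.

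Per kilobase of exon, ENSCAFG00000012243 was the higher of the pair in each group. Its median was 83.3 CPM per kb in FFPE controls and 61.1 in fresh-frozen controls, against 6.88 and 3.01 for ENSCAFG00000044241. The ratio of both genes within a library had a median of 9.20 in FFPE controls, 7.58 in FFPE tumours and 13.1 in fresh-frozen controls. In fresh-frozen tumours it was 35.3, with a range of 22.5 to 68.3. ENSCAFG00000044241 was thus further reduced relative to its partner in frozen tumours, where its counts were also fewest.

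In the fit to FFPE libraries, the log2 fold change of tumour over control was -3.56 ± 0.48 (SE) for ENSCAFG00000012243 and -3.02 ± 0.57 for ENSCAFG00000044241, with 11 tumours and 10 controls. These were the 9th and 25th lowest of 13338 genes. In fresh-frozen libraries the values were -3.47 ± 0.55 and -5.16 ± 0.73, with 6 tumours and 6 controls, the 38th and 3rd lowest of 15057. A log2 fold change under -3 was found for 0.21% of genes in FFPE and for 0.578% in fresh-frozen tissue. Neither gene was thus the most reduced in either preservation alone, and what sets them apart by the rule is a large change in both.

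Of the 13044 genes tested in both preservations, 851 were called lower in tumour in both at an adjusted p under 0.05 (edgeR, Benjamini-Hochberg), beside 11.1% of genes called lower in FFPE and 12.2% in fresh-frozen tissue. Both members are among the 851 because of how they were chosen. ENSCAFG00000044241 is just inside the rank that chose them: its smaller change was -3.02. The next gene, on chromosome 26 from 16502031 to 16522744, had -2.98 in FFPE and -4.21 in fresh-frozen tissue. The gene after it, on chromosome 24 from 47025187 to 47042266, had -3.94 and -2.78. The step from ENSCAFG00000044241 to the next gene was therefore much smaller than any of the standard errors.

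**Figure D2:**
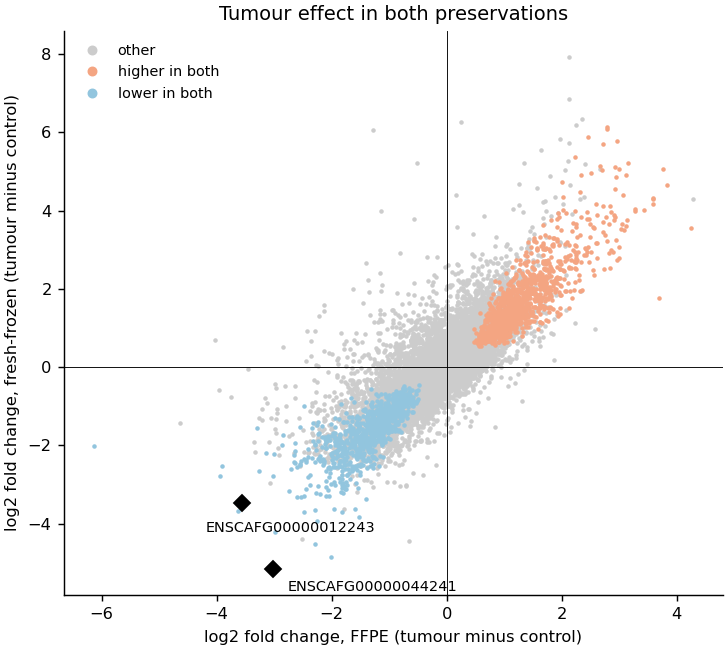
Log2 fold change of tumour over control in FFPE (horizontal) and in fresh-frozen libraries (vertical) for the 13044 genes tested in both, with the 851 genes called lower in both, the 1121 called higher in both, all others in grey, and both members as black diamonds. The members sit at -3.56 and -3.47 and at -3.02 and -5.16, at the far lower left edge.

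Both log2 fold changes stayed below 0 in each subset of dogs that was fitted. Since the genes were chosen by this contrast in these same libraries, that sign was largely given in advance. Without dog 60461 they were -3.93 and -3.69 in FFPE for ENSCAFG00000012243 and ENSCAFG00000044241, and -3.36 and -5.00 in fresh-frozen tissue. Among FFPE French Bulldogs alone they were -4.54 and -3.96, and among FFPE Boxers alone -2.53 and -1.79, so that the Boxer value of ENSCAFG00000044241 was over 1.5 times smaller than that over all breeds. With age as a covariate, in the FFPE dogs whose FFPE label states an age, which leaves out dog 60461, they were -4.51 and -3.66, against -4.03 and -3.54 in the same dogs without it. With the age of dog 60461 taken from its fresh-frozen label, they were -4.28 and -3.26 with age and -3.68 and -2.90 without it. Within the larger set of fresh-frozen libraries they were -3.65 and -5.33 and within the smaller set -3.26 and -4.67, so the split of those libraries moved neither by more than its standard error.

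The tumour change of ENSCAFG00000012243 was of like size in both preservations, and that of ENSCAFG00000044241 was larger in frozen tissue. The change in FFPE minus that in fresh-frozen tissue was -0.01 ± 0.74 (SE) and 2.21 ± 0.92 on the log2 scale, fitted over all 33 libraries. The fit had no term for the dog, so both libraries of a dog were treated as independent. Since the members were ranked by the smaller of both changes, these differences are a description and carry no test. Without dog 60461 they became -0.51 ± 0.70 and 1.36 ± 0.85, so this 1 dog supplied much of the difference for ENSCAFG00000044241.

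The 8 dogs with both kinds of sample show how far a level in fixed tissue stands for that in frozen tissue. The ranking of genes did not use this contrast. It did use the libraries of these dogs, so the values are not fully independent of the choice. For ENSCAFG00000012243, the FFPE level divided by the fresh-frozen level was 0.686 in tumour dog 60636, 0.936 in 60679, 1.82 in 60127, 1.94 in 60749 and 10.96 in 60461. In control dogs it was 1.08 in 60126, 2.58 in 60460 and 4.66 in 60462. The gene was higher in the fixed sample in 3 of 5 tumour dogs and 3 of 3 control dogs. For ENSCAFG00000044241 the ratio was 1.79 in tumour dog 60679, 3.14 in 60749, 5.66 in 60636, 7.18 in 60127 and 139 in 60461, and in control dogs 1.35 in 60126, 2.12 in 60460 and 11.5 in 60462. It was higher in the fixed sample of each of the 8 dogs.

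The ratio of 139 in dog 60461 set 176 counts in an FFPE library of 6714065 against 4 counts in a fresh-frozen library of 24458306. Among the 5 tumour dogs this animal had the highest FFPE level of both genes, while its fresh-frozen level was the 4th of 5 for ENSCAFG00000012243 and the lowest for ENSCAFG00000044241. Its 2 libraries differed in the same way for the other genes lowered in tumours: their median deviation from the tumour mean of their preservation was 0.64 (log2) in its FFPE library and -0.39 in its fresh-frozen library. In dog 60636 this median went the other way, with -0.19 in its FFPE and 0.67 in its fresh-frozen library. There ENSCAFG00000012243 deviated by -0.68 and 0.51, while ENSCAFG00000044241 deviated by 0.74 and 0.77. The part of such shifts in the ratios of the members was not tested.

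**Figure D3:**
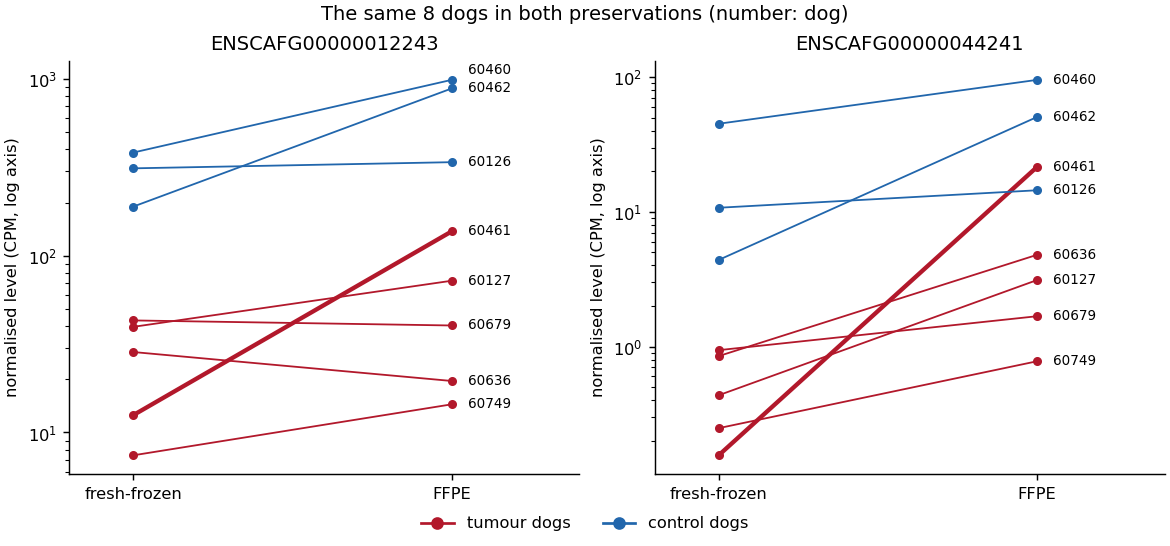
Level in CPM on a log axis of both genes in the 8 dogs with both kinds of sample, with 1 line per dog from its fresh-frozen to its FFPE library (number: dog) and tumour and control dogs in different colours. The thick line of tumour dog 60461 rises from 12.5 to 137 CPM on the left and from 0.156 to 21.6 CPM on the right and ends as the highest of the 5 tumour dogs.

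These 8 dogs were first fitted with tissue as covariate and without pairing the libraries by dog. The log2 difference of FFPE minus fresh-frozen was then 1.15 ± 0.46 (SE) for ENSCAFG00000012243 and 2.66 ± 0.74 for ENSCAFG00000044241. With edgeR's quasi-likelihood test and Benjamini-Hochberg adjustment over 17097 genes neither passed 0.05, with adjusted p of 0.199 and 0.0619, while 2.95% of genes did. The call for ENSCAFG00000044241 depended on the tool and on single dogs: DESeq2 gave 2.80 with adjusted p 0.000893, and edgeR gave 3.03 with adjusted p 0.042 without dog 60460 and 2.92 with adjusted p 0.0476 without dog 60126. Without dog 60461 the differences were 0.72 and 1.71. In the paired fit, with the dog as block over all 8 dogs, they were 0.97 ± 0.39 and 2.26 ± 0.60. Neither passed there, with edgeR adjusted p of 0.152 and 0.0589.

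No relation between the frozen and the fixed level of a dog was shown. With each value taken as a deviation from the mean of its tissue and preservation, the levels of the 8 dogs had Pearson's r 0.16 for ENSCAFG00000012243 (two-sided exact permutation p = 0.763) and 0.032 for ENSCAFG00000044241 (exact permutation p = 0.926). Spearman's rho was 0.214 (exact permutation p = 0.643) and 0.0714 (exact permutation p = 0.876), and r without the 2 dogs farthest from the median was 0.107 and -0.25. All 4 adjusted values over the 12 relations computed were at least 0.702. Without dog 60461, r was 0.588 (exact permutation p = 0.264) and 0.479 (exact permutation p = 0.438) over 7 dogs. Spearman's rho was then 0.786 (exact permutation p = 0.0833) and 0.429 (exact permutation p = 0.528). With the 2 farthest of these dogs also left out, r was 0.836 and 0.59. The near absence of a relation thus rests on dog 60461, and with it left out a relation was still not shown at this number of dogs.

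Within a group, which the tumour contrast does not fix, the relation of both genes passed the test in FFPE controls and in FFPE tumours, in the latter only with dog 60461. Among the 11 FFPE tumours log2 CPM of the pair had Pearson's r 0.775 (two-sided permutation p = 0.00489, adjusted 0.0293) and Spearman's rho 0.764 (permutation p = 0.00812, adjusted 0.0487), and r was 0.721 without the 2 tumours farthest from the median. Among the 10 FFPE controls r was 0.903 (permutation p = 0.00085, adjusted 0.0102), rho 0.867 (permutation p = 0.00227, adjusted 0.0272), and r without the 2 farthest 0.771. Dogs 45726, 60460 and 60462 were the 3 highest FFPE controls for both genes.

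The smaller frozen groups had r of the same size but did not pass. In 6 fresh-frozen tumours r was 0.799 (exact permutation p = 0.0764, adjusted 0.229), rho 0.886 (exact permutation p = 0.0333, adjusted 0.133), and r without the 2 farthest 0.736. In 6 fresh-frozen controls r was 0.781 (exact permutation p = 0.0722, adjusted 0.229), rho 0.771 (exact permutation p = 0.103, adjusted 0.308), and r without the 2 farthest 0.824. Without dog 60461 the r of the FFPE tumours fell to 0.654, with permutation p = 0.0431 and an adjusted value of 0.229, so the call in tumours, unlike its direction, needed that dog.

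**Figure D4:**
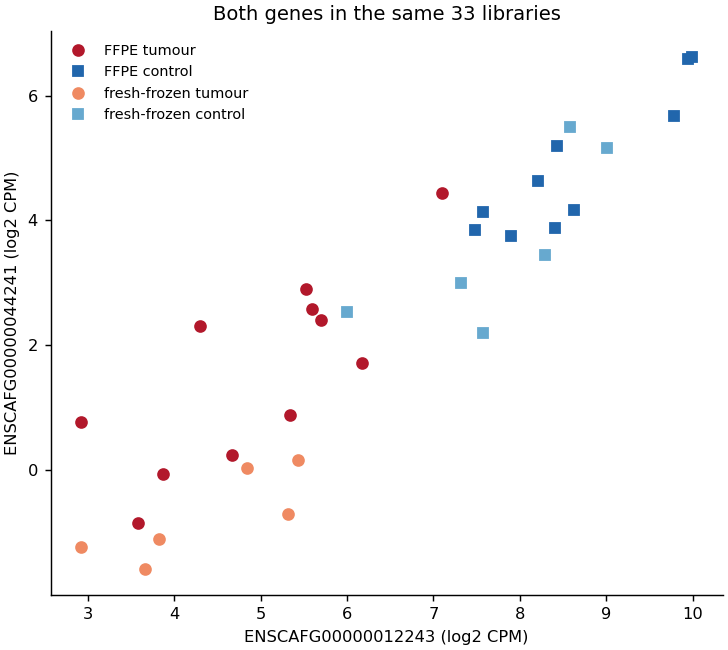
Log2 CPM of ENSCAFG00000012243 (horizontal) and ENSCAFG00000044241 (vertical) in each of the 33 libraries, coloured by group. Libraries higher in one gene tend to be higher in the other, with r of 0.775, 0.903, 0.799 and 0.781 in FFPE tumours, FFPE controls, fresh-frozen tumours and fresh-frozen controls, of which the first 2 passed the test.

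Both genes also varied among tumours together with most other genes that were lowered in tumours. Each library's log2 CPM was taken as a deviation from the tumour mean of its preservation, and r was computed over the 17 tumour libraries of 12 dogs. These points share their libraries, depth and composition, and 5 dogs enter with 2 libraries, so r is a description without a p. ENSCAFG00000012243 had a median r of 0.67 with the 850 other genes lowered in both preservations, of -0.45 with the 1121 raised genes, and of -0.04 over all 13043 genes. Of the lowered genes, 79.2% had r over 0.5 with it, against 15.6% of all genes. ENSCAFG00000044241 had medians of 0.52, -0.35 and 0.02, and 55.8% of lowered genes over 0.5 against 11.6% of all genes. A tumour with more of these genes was thus, by and large, a tumour with more of the other lowered genes and less of the raised ones.

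The same showed against the median deviation of the lowered genes in each library. ENSCAFG00000012243 had r 0.877 with it over the 17 tumour libraries, 0.86 in FFPE and 0.948 in fresh-frozen tumours. ENSCAFG00000044241 had 0.671, 0.682 and 0.862. At the high end stood the FFPE library of dog 44331, whose lowered genes had a median deviation of 0.91, with members at 0.54 and 1.32, and the fresh-frozen library of dog 60679 with 0.84 and members at 1.10 and 0.90. At the low end stood the FFPE library of dog 50416 with -0.93 and members at -1.39 and -2.42, and both libraries of dog 60749, with -0.87 in FFPE and -0.85 in fresh-frozen tissue and members between -0.50 and -1.65. The share of counts from mitochondrial genes, which ranged from 4.06% to 34.6% among tumours, had r 0.179 and -0.0081 with the 2 genes, and the total count 0.383 and 0.072. By preservation, ENSCAFG00000012243 had r 0.0847 with the mitochondrial share and 0.267 with the total in FFPE tumours, and 0.453 and 0.61 in the 6 fresh-frozen tumours. ENSCAFG00000044241 had -0.0315 and 0.0793 in FFPE tumours, and 0.111 and 0.109 in fresh-frozen ones. Their part in the co-variation was not tested.

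**Figure D5:**
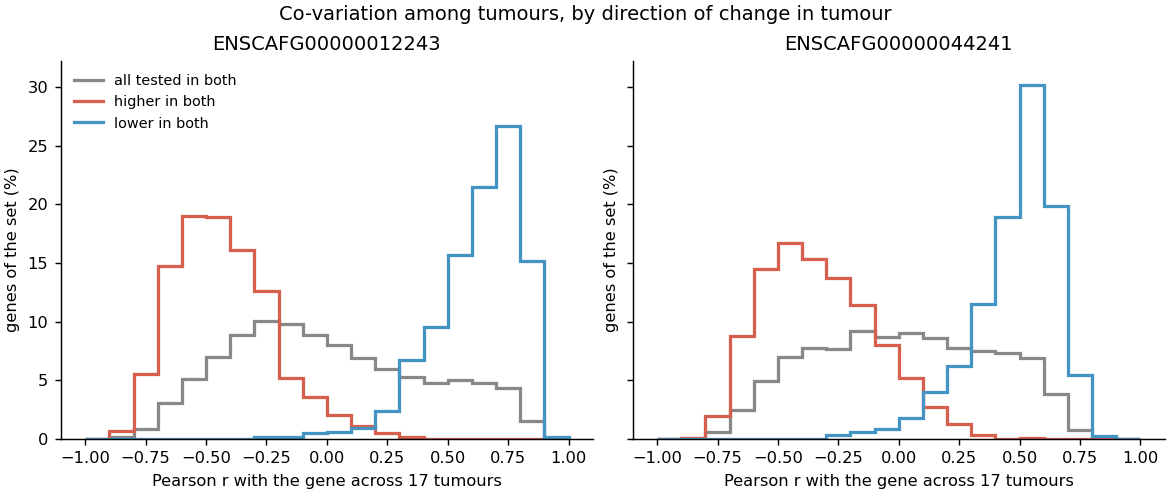
Share of genes (vertical, percent of the set) by their Pearson r with ENSCAFG00000012243 (left) or ENSCAFG00000044241 (right) across the 17 tumour libraries, for genes lower in both preservations, higher in both, and all genes tested. Lowered genes peak at high positive r, with medians of 0.67 and 0.52, and raised genes at negative r, with medians of -0.45 and -0.35.

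The genes most like each member were sought among 823 lowered genes of average log2 CPM at least 2. For ENSCAFG00000012243 the closest was a gene on chromosome 6 from 42584798 to 42605136 with r 0.936. Then came genes on chromosome 4 from 49342508 to 49578092 (r 0.9), chromosome 6 from 41407070 to 41408823 (r 0.887), chromosome 9 from 46784098 to 47011298 (r 0.886) and chromosome 3 from 54508627 to 54539505 (r 0.884). The same chromosome 6 gene at 42584798 was also the second closest to ENSCAFG00000044241, with r 0.808. It was itself only mildly lowered, by a log2 fold change of -0.73 in FFPE and -0.82 in frozen samples, so the likeness is one of order among tumours and not of size.

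For ENSCAFG00000044241 the closest gene lay on chromosome 27 from 5679658 to 5687428, with r 0.819. The others were on chromosome 20 from 40442386 to 40449542 (r 0.793), chromosome 26 from 37136897 to 37218783 (r 0.783) and chromosome 9 from 53672910 to 53676910 (r 0.775). ENSCAFG00000012243 itself was the 7th closest to ENSCAFG00000044241 with r 0.761, whereas seen from ENSCAFG00000012243 its partner was only the 221st of 823. Of the 50 genes most like each member, 9 were common to both lists. The overlap to be expected, when most lowered genes vary with both members, was not computed. 

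In healthy brain the members stood closer to each other in these ranks. Over the 16 control libraries, handled the same way and added after the tumour values were seen, the members had r 0.848 with each other. Each was then the closest of the 823 lowered genes to the other, and among all 13043 genes ENSCAFG00000044241 was the 2nd closest to ENSCAFG00000012243 and ENSCAFG00000012243 the closest to ENSCAFG00000044241. Their link to the lowered genes at large was weak there, with a median r of 0.06 and 0.10. The 50 genes closest to each in controls include the other member, which is lowered by the choice of the genes. With it, 17 and 16 of them were lowered in tumours in both preservations, beside 6.52% of all genes. Leaving out the members, 17 genes were on both lists, and the overlap to be expected at their r was not computed. The difference between controls and tumours was not tested.

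Genes near the members were called in both directions in tumours. Over the genome 11.1% of genes were called lower and 10.1% higher in FFPE tumours, and 12.2% lower and 18.3% higher in fresh-frozen ones. Within 1 Mb of ENSCAFG00000012243, 31 genes were tested in FFPE, of which 2 were called lower and 2 higher in tumour, with a median log2 fold change of 0.10. In fresh-frozen tissue 4 were lower and 7 higher of 34, with a median of -0.05. Within 1 Mb of ENSCAFG00000044241, 3 were lower and 2 higher of 20 in FFPE, with a median of 0.04. In fresh-frozen tissue 4 were lower and 6 higher of 20, with a median of 0.46. Log2 fold changes of these neighbours ran from -2.09 to 1.54 in FFPE and from -3.06 to 3.87 in fresh-frozen tissue. Near ENSCAFG00000012243 they ran from -1.37 to 1.72 and from -2.01 to 2.49.

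The nearest tested genes moved little beside the members. On chromosome 26, the gene from 22630670 to 22689996 had log2 fold changes of -0.56 (FFPE) and -0.73 (frozen), with edgeR adjusted p of 0.0444 and 0.0565. The gene on the other side, from 22748895 to 22784143, had 0.31 and -0.07, with adjusted p of 0.203 and 0.746. On chromosome 7, the gene from 330705 to 412386 rose by 0.80 and 0.78, with edgeR adjusted p of 0.0124 and 0.0317. The gene from 512575 to 713709, which starts 9.62 kb beyond ENSCAFG00000044241 and is on the other strand, had -0.52 and -0.65, with adjusted p of 0.124 and 0.0387.

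No difference between breeds passed the test among FFPE tumours or among FFPE controls. ENSCAFG00000012243 had a median of 38.4 CPM in 4 Boxer tumours (11.8 to 137) and 29.9 in 6 French Bulldog tumours (7.44 to 48.0), and ENSCAFG00000044241 had 3.06 (0.382 to 21.6) and 3.24 (0.777 to 7.27). The log2 difference of French Bulldog minus Boxer was -0.95 ± 0.64 (SE) and -0.98 ± 0.90, each with an edgeR adjusted p of 1.00. Without dog 60461, a Boxer, it was -0.04 and 0.80. In controls it was 1.03 ± 0.53 and 1.10 ± 0.59, again with adjusted p of 1.00, from medians of 321 CPM in 4 Boxers and 884 in 5 French Bulldogs for ENSCAFG00000012243 and of 21.2 and 50.7 for ENSCAFG00000044241. In tumours 0% of 13873 genes were called by edgeR and 283 had an unadjusted p under 0.05, with 0 called by DESeq2. In controls 0% of 12975 were called by edgeR and 424 had an unadjusted p under 0.05, with 3 called by DESeq2.

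Neither age nor sequencing depth was shown to go with the levels within FFPE groups. Over the 9 FFPE tumours with an age on the FFPE label, which dog 60461 lacks, r with age was 0.214 for ENSCAFG00000012243 (exact permutation p = 0.579, adjusted 0.94) and -0.262 for ENSCAFG00000044241 (exact permutation p = 0.495, adjusted 0.94), with rho 0.267 (exact permutation p = 0.493, adjusted 0.592) and -0.283 (exact permutation p = 0.463, adjusted 0.592), and r without the 2 farthest of 0.255 and 0.108. With dog 60461 at the age on its fresh-frozen label, r over 10 tumours was 0.225 (permutation p = 0.535, adjusted 0.916) and -0.149 (permutation p = 0.686, adjusted 0.94), rho was 0.358 (permutation p = 0.313, adjusted 0.556) and -0.127 (permutation p = 0.733, adjusted 0.8), and r without the 2 farthest was 0.29 and 0.176. With log10 of the total count, r was 0.223 and 0.121 in the 11 FFPE tumours (permutation p = 0.512 and 0.723) and -0.0565 and -0.0267 in the 10 FFPE controls (permutation p = 0.869 and 0.94), each adjusted to 0.94. Spearman's rho with the total was 0.318, 0.255, -0.273 and -0.309 in the same order, each with an adjusted permutation p of 0.592, and r without the 2 farthest was 0.302, 0.353, -0.0156 and 0.0972. The grade II tumours were dog 51234, the lowest FFPE tumour for ENSCAFG00000012243, and dog 60679, the highest fresh-frozen tumour for both genes. With 2 dogs of that grade, no comparison between grades was made.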

How the data were processed

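Values were the authors' deposited raw counts of fragments per gene, made with featureCounts 1.6.0 on the forward strand (option 1) at a mapping quality of at least 10 with Ensembl release 100 gene models, per the file headers. The submitters' processing notes also list CanFam3.1, STAR and fastp. Libraries carried unique molecular identifiers, per the labels' protocols, and whether copies were collapsed by them is not stated in the sources used here.

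The whole table was fitted with edgeR 4.0.16 (R 4.3.3) by quasi-likelihood tests with robust dispersions after filterByExpr by group and TMM scaling. Genes were called at an adjusted p under 0.05 (Benjamini-Hochberg over all genes tested). The standard error was the log2 fold change divided by the square root of F. DESeq2 1.42.0 was an alternative. The scripts were tested on simulated data with 200 changed genes. Log2 CPM used a prior count of 2. Correlations used two-sided permutation tests (scipy 1.17.1), exact under 10 samples and otherwise with 100000 resamples, adjusted over 12 relations for Pearson's r and for Spearman's rho separately.

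Groups and dog numbers came from the labels. A shared dog number pairs 2 libraries of 1 animal, and 7 of 8 pairs deviated together with r over 0.1. The test between preservations has tissue as covariate, and a fit with the dog as block was an alternative. Besides the members, named genes were the 5 most alike among lowered genes of average log2 CPM at least 2, the nearest tested gene on each side, and the next 2 in the ranking. The members and lists were chosen with earlier results of these data known. Cell type markers and sequences were not used here, as identifiers were not paired with names and no genome was used.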

Additional observations from a re-analysis of the deposited data

How the results depend on the processing

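Of 157 alternative values computed for 20 results, 150 kept their direction and their side of the threshold, or moved by less than the spread between replicates. This is a wide allowance, and part of the 150 could hardly have come out otherwise. The values include the tumour changes, whose sign was largely given by the choice of the genes. They also include the breed differences in tumours, where 0 genes were called in each setting. For the FFPE tumour change that spread was 1.11 and 1.35 (log2), so the Boxer values of -2.53 and -1.79 are among the 150. So is the breed difference in tumours of -0.04 for ENSCAFG00000012243 without dog 60461, which kept its sign and stayed uncalled. With the dog as replicate block, the paired log2 difference of FFPE minus fresh-frozen was 0.97 for ENSCAFG00000012243 (adjusted p 0.152, edgeR) and 2.26 for ENSCAFG00000044241 (adjusted p 0.0589), which changed no call. DESeq2 gave 2.80 for ENSCAFG00000044241, now past the threshold. Leaving out 1 dog at a time gave 0.72 to 1.38 and 1.71 to 3.03. For French Bulldog minus Boxer the same gave -1.28 to -0.04 and -1.37 to 0.80 in tumours, where 0.80, without dog 60461, is a reversal, and 0.82 to 1.27 and 0.77 to 1.38 in controls. Without a filter on low counts the difference between preservations in the tumour change of ENSCAFG00000012243 was 0.14 in place of -0.01. With a prior count of 0.5 the r of ENSCAFG00000044241 between preservations was -0.027 in place of 0.032. In fresh-frozen tumours alone its median r with lowered genes was 0.73 in place of 0.52. The cause of these changes was not tested.

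Counts of called genes depended more on the subset. In FFPE, 2819 genes were called between tumour and control, against 1250 without the 8 shared dogs, 1 in those dogs alone, 614 in dogs with an age on the FFPE label and 103 with age as covariate, 770 and 141 with dog 60461 at the age on its other label, 722 in French Bulldogs and 0 in Boxers. In fresh-frozen libraries, 4597 were called, against 2291 in the larger set and 0 in the smaller. Between preservations, 504 were called, against 1135 by DESeq2, 76 in tumour dogs (131 with the dog as block) and 0 in control dogs. Without dogs 60636, 60679, 60749, 60127, 60461, 60460, 60126 or 60462 it was 215, 165, 773, 281, 269, 316, 684 and 280. Between breeds in controls, 0 were called, against 2 with no filter, 3 by DESeq2 and 1 without dog 60460 or 60462. These subsets hold fewer samples. For tumour against control, leaving the mitochondrial genes out gave 1563 higher and 1286 lower calls in FFPE in place of 1342 and 1477, and no filter gave 1363 and 2626. Chosen after seeing the data were the likeness in controls, the alternatives to the difference between preservations in the tumour change, the fit to dogs of stated age with no age term, the use of the age on the other label, and the fits with the dog as block in tumour or control dogs alone. So was leaving out dog 60461, except between preservations in the 8 dogs and between breeds in tumours. Depth limits ENSCAFG00000044241 most, with 1 to 9 counts in 6 FFPE tumours and 3 to 5 in 3 fresh-frozen ones.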

Other observations

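In a comparison of breed and tissue added after the values were seen, no difference between breeds in the tumour change passed the test in FFPE tissue. The change in French Bulldogs minus that in Boxers was -2.01 ± 0.90 (SE, log2) for ENSCAFG00000012243 and -2.18 ± 1.14 for ENSCAFG00000044241. By edgeR's quasi-likelihood test with Benjamini-Hochberg adjustment the unadjusted p were 0.0371 and 0.0694 and the adjusted p 1.00. Of 14760 genes 0% were called, and 289 had an unadjusted p under 0.05. Without Boxer 60461 the differences were -0.98 ± 0.84 and -0.19 ± 1.18, with edgeR adjusted p of 1.00.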
